A study of Mus musculus with 20 samples.

Results

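Transcripts of 10 genes that build the muscle side of the neuromuscular junction, or that muscle is known to change when it loses its nerve, were followed through surgical overload and senolytic treatment of old mouse muscle. They were Chrna1, Chrnb1, Chrnd, Chrne and Chrng, the subunits of the muscle acetylcholine receptor, Lrp4, Musk, Dok7 and Rapsn, which gather that receptor under the nerve ending, and Ncam1, a cell adhesion molecule. Members were taken by name, and each of the 10 had its own row among the 22660 rows of the count table. In MOV muscle the alpha, beta, delta and gamma receptor subunits and Ncam1 were higher than in sham muscle, Chrne showed no detectable difference, and Musk, Rapsn and Lrp4 were lower, with and without the drugs. Of these 3, Musk was lower under each scaling tried, whereas Rapsn lost its call and Lrp4 its direction when counts were scaled to muscle fibre markers. Chrne was called higher when scaled to those markers or to total counts. None of the members tested differed between D + Q and vehicle at an adjusted p under 0.05, in either sham or MOV muscle. Chrng had too few counts to be tested in sham muscle.

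At the neuromuscular junction the motor nerve secretes agrin, which binds LRP4 on the muscle fibre and activates the receptor tyrosine kinase MuSK. With its adaptor DOK7, MuSK drives rapsyn to cluster acetylcholine receptors at the synapse, and the nuclei that lie there transcribe the synaptic genes at a high rate. Electrical activity keeps the same genes low along the rest of the fibre. The receptor is a pentamer of alpha, beta and delta subunits with gamma in the foetus and epsilon in the adult, and the gamma subunit, with NCAM, is known to return along the fibre when a muscle is denervated or regenerates.

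The 20 mice were male C57BL/6 J animals of 2 years, 5 in each of 4 groups, and all were killed 14 days after surgery. In mechanical overload (MOV), parts of the gastrocnemius and soleus of both legs were cut away so that the plantaris, whose nerve and blood supply the operators left intact, had to carry more load. Sham mice had the skin opened only. Within each surgery, one group received vehicle and the other the senolytic mixture D + Q, which is dasatinib at 5 mg/kg and quercetin at 50 mg/kg by gavage. The labels give days 7 and 10 for the doses of all groups, whereas the design text gives days 7 and 14 for the sham mice. RNA came from the whole plantaris, so that a few synaptic nuclei are diluted among all others. In such bulk RNA, fewer cells of a type and less RNA per cell cannot be told apart.

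The deposited counts per mouse summed to between 17887532 and 26234518, and no pair of libraries within a group differed by as little as counting noise. The 12 muscle fibre markers, such as Acta1 and Ckm, summed to between 88469.9 and 95508 CPM in sham muscle. In MOV muscle they summed to between 55504 and 81927 CPM, so the tissue label held in all mice. The lower sums after MOV depend on the scaling. With total counts alone, 4 of these markers were called higher and 5 lower after MOV with vehicle, and 4 and 7 with D + Q. Of 6 motor neuron and axon markers, 2 had a row in the table (Nefm and Isl1), and these summed to 1.71 CPM at most. Isl1 was called higher after MOV in the D + Q mice. With vehicle it had too few counts to be tested, with means of 0.349 CPM in sham and 0.897 CPM in MOV. The second D + Q sham mouse stood apart from its group, with 20 Chrng counts where the other 4 had 0 to 2, with 6.4 CPM of Ncam1 against 3.74 to 5.65 CPM, and with 173 CPM of the collagen gene Col1a1 against 56.6 to 84 CPM. Fitted Chrng values that turned on this mouse are given with and without it. So are the Ncam1 values for D + Q in sham muscle and for the interaction.

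The promoters of 6 of the 10 genes had an entry in the RefSeq table used here, and Chrnd, Lrp4, Rapsn and Ncam1 had none. Those of 4 receptor subunits are shown, because these subunits moved by different amounts after MOV: Chrng the most, Chrna1 less, Chrnb1 little and Chrne not detectably. Each runs 5′ to 3′ from 250 bases before the start site to 50 bases from it on, in GRCm38.p6, and capitals mark every match, on either strand, to the E-box CANNTG, the letters bound by myogenic regulatory factors such as myogenin and MyoD, or to CCGGAA, an N-box form bound by the Ets factor GABP.
Chrng, chr1:87205561-87205860, plus strand: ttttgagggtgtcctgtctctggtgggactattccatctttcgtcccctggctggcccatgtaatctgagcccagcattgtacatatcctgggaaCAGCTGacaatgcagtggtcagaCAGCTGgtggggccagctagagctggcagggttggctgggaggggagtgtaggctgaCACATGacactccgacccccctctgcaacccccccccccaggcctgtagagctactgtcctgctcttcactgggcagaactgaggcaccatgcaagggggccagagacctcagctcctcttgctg
Chrna1, chr2:73580289-73580588, minus strand: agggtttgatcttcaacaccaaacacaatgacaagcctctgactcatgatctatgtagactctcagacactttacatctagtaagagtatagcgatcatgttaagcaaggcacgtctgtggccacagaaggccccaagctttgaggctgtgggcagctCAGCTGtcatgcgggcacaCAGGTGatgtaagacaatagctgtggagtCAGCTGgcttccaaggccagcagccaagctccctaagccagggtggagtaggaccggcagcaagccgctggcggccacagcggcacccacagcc
Chrnb1, chr11:69795888-69796187, minus strand: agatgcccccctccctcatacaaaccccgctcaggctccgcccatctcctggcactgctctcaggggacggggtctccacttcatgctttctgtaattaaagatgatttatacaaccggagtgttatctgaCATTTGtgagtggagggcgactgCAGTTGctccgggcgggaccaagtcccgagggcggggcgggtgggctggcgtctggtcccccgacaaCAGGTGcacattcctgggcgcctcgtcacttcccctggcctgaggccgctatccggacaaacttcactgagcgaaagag
Chrne, chr11:70619145-70619444, minus strand: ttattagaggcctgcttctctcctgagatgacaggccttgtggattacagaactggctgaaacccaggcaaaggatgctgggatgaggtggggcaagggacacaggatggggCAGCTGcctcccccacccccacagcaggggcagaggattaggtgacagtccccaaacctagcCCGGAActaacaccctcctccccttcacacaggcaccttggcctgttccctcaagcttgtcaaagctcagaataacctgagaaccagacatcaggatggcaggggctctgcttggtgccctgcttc
The Chrng and Chrna1 windows each held 3 E-boxes, of which 2 had the form CAGCTG. In Chrng these 2 began 155 and 132 bases before the start site, and in Chrna1 they began 92 and 44 bases before it. The Chrnb1 window held 3 E-boxes and none of that form. In the Chrne window, 1 CAGCTG lay 138 bases and 1 CCGGAA 76 bases before the start, and CCGGAA was found in none of the other windows searched. Musk held 3 E-boxes, 1 of them CAGCTG, and the pair of Dok7 windows held 1 and 0 E-boxes with no CAGCTG. Of all 32851 RefSeq promoters of this length, 72.3% held an E-box, 16.3% held CAGCTG, which is itself an E-box, and 14.9% held CCGGAA. A match describes letters in the window and not a bound site.

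The gamma subunit gene Chrng (GRCm39 chromosome 1, 87132379 to 87140416, with no other annotated gene overlapping it) showed the largest fitted difference of the 10. In the vehicle sham mice it measured 0.552, 0.0576, 0.0645, 0.291 and 0.0589 CPM (counts scaled to a common library size with trimmed-mean factors), and 3 of these 5 mice had no more than 3 counts. In vehicle MOV it measured 3.29, 4.15, 5.18, 7.88 and 4.06 CPM. The lowest MOV mouse was thus 5.96 times the highest sham mouse, and the fitted log2 fold change was 4.45 ± 0.46 (SE, n = 5 per group, edgeR adjusted p = 1.65e-06). With D + Q, sham mice measured 0, 1.22, 0.0976, 0 and 0 CPM and MOV mice 2.54, 2.06, 5.56, 2.77 and 5.14 CPM. The groups did not overlap, although the lowest MOV mouse was only 1.69 times the sham mouse that stood apart. The fitted difference of 3.95 ± 0.86 (edgeR adjusted p = 0.00244) became 6.92 without that mouse, a fitted value that rests on 2 sham counts in 4 mice. On those counts the ratio of rates was 142 (exact 95% interval 39 to 1174, counting error only).

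Chrne, the epsilon subunit gene that takes the place of gamma in the adult receptor (chromosome 11, 70505707 to 70510125, overlapped on the opposite strand by 4930544D05Rik), showed no detectable difference. Its means were 8.54 ± 1.40 CPM in vehicle sham and 8.78 ± 2.10 CPM in vehicle MOV, and 8.92 ± 1.96 and 8.97 ± 1.64 CPM in the corresponding D + Q groups (SD, n = 5 each). The fitted log2 differences were 0.051 with vehicle (95% interval -0.30 to 0.40, edgeR adjusted p = 0.805) and 0.051 with D + Q (-0.28 to 0.38, adjusted p = 0.79). Scaled to total counts alone the differences were 0.43 and 0.42, and scaled to muscle fibre markers 0.54 and 0.63, all past the threshold, while those scalings moved the median of all genes to 0.36 and 0.39, and to 0.47 and 0.58.

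Set side by side per unit of merged exon length, gamma transcripts made up a small share of gamma plus epsilon in sham muscle and a larger one in MOV muscle. The vehicle sham mice had 2.35, 0.307, 0.408, 1.21 and 0.297% gamma, and the vehicle MOV mice 10.4, 16.1, 20.6, 28.6 and 22.0%. The D + Q sham mice had 0, 7.58, 0.41, 0 and 0%, and the D + Q MOV mice 13.9, 8.95, 17.4, 12.1 and 18.2%. Epsilon therefore remained the more abundant of the pair in every mouse. The vehicle MOV mean was 19.5 ± 6.77% and the D + Q MOV mean 14.1 ± 3.83% (SD, n = 5), with overlapping mice. The merged exons of Chrng, 4203 bases, are longer than its canonical transcript of 2821 bases, and with canonical lengths the same means were 25.6 and 19.0%.

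**Figure D1:**
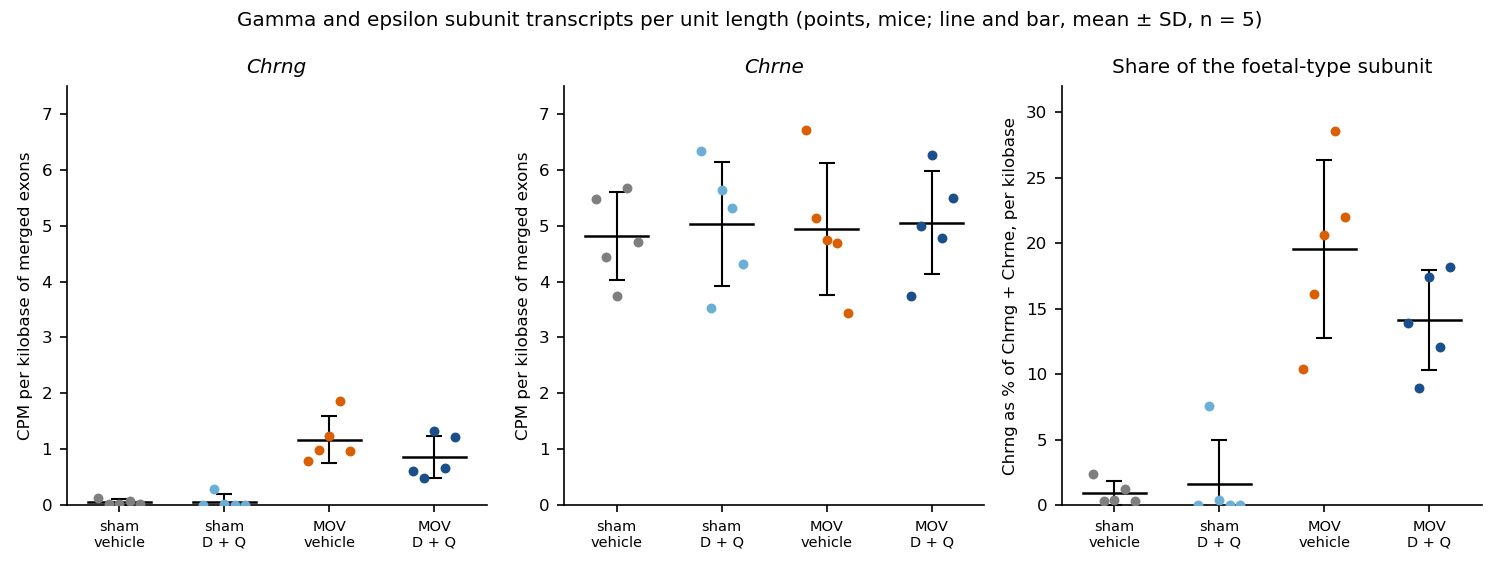
Chrng and Chrne levels in CPM per kilobase of merged exons and the percentage of gamma in their sum, for each mouse by surgery and treatment (points), with mean and SD (n = 5). Gamma lay between 8.95 and 28.6% in the 10 MOV mice and between 0 and 7.58% in the 10 sham mice, while Chrne overlapped in all 4 groups.

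The subunits shared by both forms of the receptor rose by unequal amounts. Chrnd, the delta subunit gene, ends 4583 bases before Chrng begins on chromosome 1 (87118306 to 87127795, same strand). It measured 2.35, 1.15, 1.48, 1.92 and 2.00 CPM in vehicle sham and 8.76, 7.32, 8.15, 11.5 and 7.39 CPM in vehicle MOV. In D + Q mice it went from 2.84, 2.68, 1.66, 1.70 and 1.02 CPM in sham to 5.4, 4.85, 7.65, 5.00 and 10.3 CPM in MOV. Neither pair of groups overlapped. The log2 fold changes were 2.27 ± 0.20 with vehicle (edgeR adjusted p = 2.28e-07) and 1.80 ± 0.28 with D + Q (adjusted p = 4.9e-05).

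Chrna1, whose alpha subunit carries the acetylcholine binding sites and is present as a pair in each receptor, lies on chromosome 2 (73393557 to 73410835, with the noncoding Gm30940 on the opposite strand). Its vehicle sham mice measured 16.7, 13.2, 13.3, 12.9 and 11.7 CPM against 41.7, 30.8, 28.8, 27.0 and 34.0 CPM in vehicle MOV. With D + Q the values were 14.1, 14.4, 11.2, 15.6 and 13.1 CPM in sham and 22.3, 24.5, 29.9, 27.3 and 32.7 CPM in MOV, again without overlap. The fold changes were 2.41-fold with vehicle (log2 1.27 ± 0.12, edgeR adjusted p = 6.91e-07) and 2.06-fold with D + Q (log2 1.04 ± 0.11, adjusted p = 2.12e-07).

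Chrnb1, the beta subunit gene (chromosome 11, 69674860 to 69686773), had the highest mean of the 10 per unit of merged exon length in all 4 groups, with mice overlapping those of Rapsn in D + Q sham muscle, and rose the least of the shared subunits. It measured 45.8, 38.7, 49.0, 41.9 and 38.6 CPM in vehicle sham and 56.7, 65.5, 49.9, 45.8 and 66.6 CPM in vehicle MOV, where the lowest MOV mouse fell inside the sham range. In D + Q mice, sham at 35.1, 37.0, 37.1, 39.5 and 27.8 CPM did not overlap MOV at 43.2, 52.1, 43.4, 46.1 and 56.5 CPM. The differences were 0.42 ± 0.11 (edgeR adjusted p = 0.00326) and 0.50 ± 0.095 (adjusted p = 0.000243) on the log2 scale.

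The genes that lead from agrin to receptor clustering showed no call for a rise under the main scaling. Lrp4, the agrin receptor (chromosome 2, 91287797 to 91344248), measured 16.0 to 19.6 CPM in vehicle sham (median 17.5) and 12 to 16.2 CPM in vehicle MOV (14.9), so that 1 MOV mouse lay just within the sham range. It measured 15.8 to 18.2 CPM (17.1) in D + Q sham and 12.4 to 15.7 CPM (13.5) in D + Q MOV, without overlap. It was lower by 0.29 ± 0.10 with vehicle (log2 fold change -0.29, edgeR adjusted p = 0.0208) and by 0.25 ± 0.084 with D + Q (-0.25, adjusted p = 0.0148), but it turned to 0.086 and 0.12 when scaled to total counts and to 0.18 and 0.31 when scaled to muscle fibre markers, the last a call in the opposite direction (adjusted p = 0.0247). With vehicle the call was lost without the first sham mouse (edgeR adjusted p = 0.06), the fourth MOV mouse (0.0645) or the fifth MOV mouse (0.0723), and with D + Q without the fourth MOV mouse (0.0548).

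Musk, the kinase at the centre of the pathway (chromosome 4, 58285931 to 58377847, with Gm68860 on the opposite strand), was the member that fell furthest. Vehicle sham mice measured 30.7, 19.7, 29.9, 30.4 and 26.1 CPM and vehicle MOV mice 13.4, 19.1, 13.9, 9.72 and 18.4 CPM. The second vehicle sham mouse lay close to the highest MOV mouse, but the groups did not overlap. With D + Q, sham mice at 29.8, 28.4, 29.9, 30.6 and 29.2 CPM stood far above MOV mice at 11.4, 12.7, 10.3, 13.2 and 9.96 CPM. The log2 fold changes were -0.87 ± 0.18 with vehicle (edgeR adjusted p = 0.00116) and -1.31 ± 0.083 with D + Q (adjusted p = 4.26e-10), and both stayed negative and past the threshold under each scaling tried, at -0.42 and -0.76 for fibre markers.

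Dok7, the adaptor that activates MuSK from inside the fibre (chromosome 5, 35213886 to 35246018), showed no call in either treatment. It measured 15.9 to 24.1 CPM in vehicle sham (median 19.3) and 16.1 to 28.3 CPM in vehicle MOV (22.1), and 18.2 to 25.1 CPM (23.7) and 16.1 to 23.3 CPM (18.5) in the D + Q groups. The fitted differences were 0.22 ± 0.14 with vehicle (edgeR adjusted p = 0.201) and -0.20 ± 0.11 with D + Q (adjusted p = 0.117). Scaled to total counts they were 0.58, past the threshold, and 0.17, and scaled to fibre markers 0.67 and 0.36, both past it. The vehicle difference was also called without the fourth MOV mouse (0.34, edgeR adjusted p = 0.0209), and the D + Q difference without the third sham mouse (-0.26, adjusted p = 0.0316) or the second MOV mouse (-0.27, adjusted p = 0.0252).

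Rapsn encodes rapsyn, the scaffold that binds the receptor from the cytoplasm (chromosome 2, 90865892 to 90876082, with Gm13778 on the opposite strand). It measured 24.8, 28.8, 29.1, 23.4 and 24.1 CPM in vehicle sham and 17.1, 19.4, 16.2, 16.4 and 17.2 CPM in vehicle MOV, and 25.5, 29.8, 31.1, 25.9 and 27.5 CPM in D + Q sham against 15.6, 16.9, 15.1, 19.0 and 15.8 CPM in D + Q MOV. Every MOV mouse was below every sham mouse of its treatment. The log2 fold changes were -0.58 ± 0.086 with vehicle (edgeR adjusted p = 3.51e-05) and -0.72 ± 0.081 with D + Q (adjusted p = 4.55e-07), and -0.11 and -0.16, no longer past the threshold, when scaled to fibre markers.

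Ncam1, which in adult muscle marks the synapse, satellite cells and denervated or regenerating fibres and is also made by nonmyelinating Schwann cells (chromosome 9, 49413436 to 49710357, overlapped by Gm57029 on its own strand and Gm11149 on the other), was the member with the smallest adjusted p with vehicle. It measured 3.87, 3.11, 4.51, 3.84 and 3.83 CPM in vehicle sham and 24.7, 35.5, 21.4, 24.3 and 30.8 CPM in vehicle MOV. In D + Q mice it measured 3.78, 6.40, 4.10, 3.74 and 5.65 CPM in sham and 21.2, 19.3, 26.5, 19.5 and 29.4 CPM in MOV. The groups were far apart in both treatments, at 7.19-fold with vehicle (log2 2.85 ± 0.15, edgeR adjusted p = 1.86e-09) and 5.08-fold with D + Q (log2 2.35 ± 0.17, adjusted p = 2.81e-08).

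**Figure D2:**
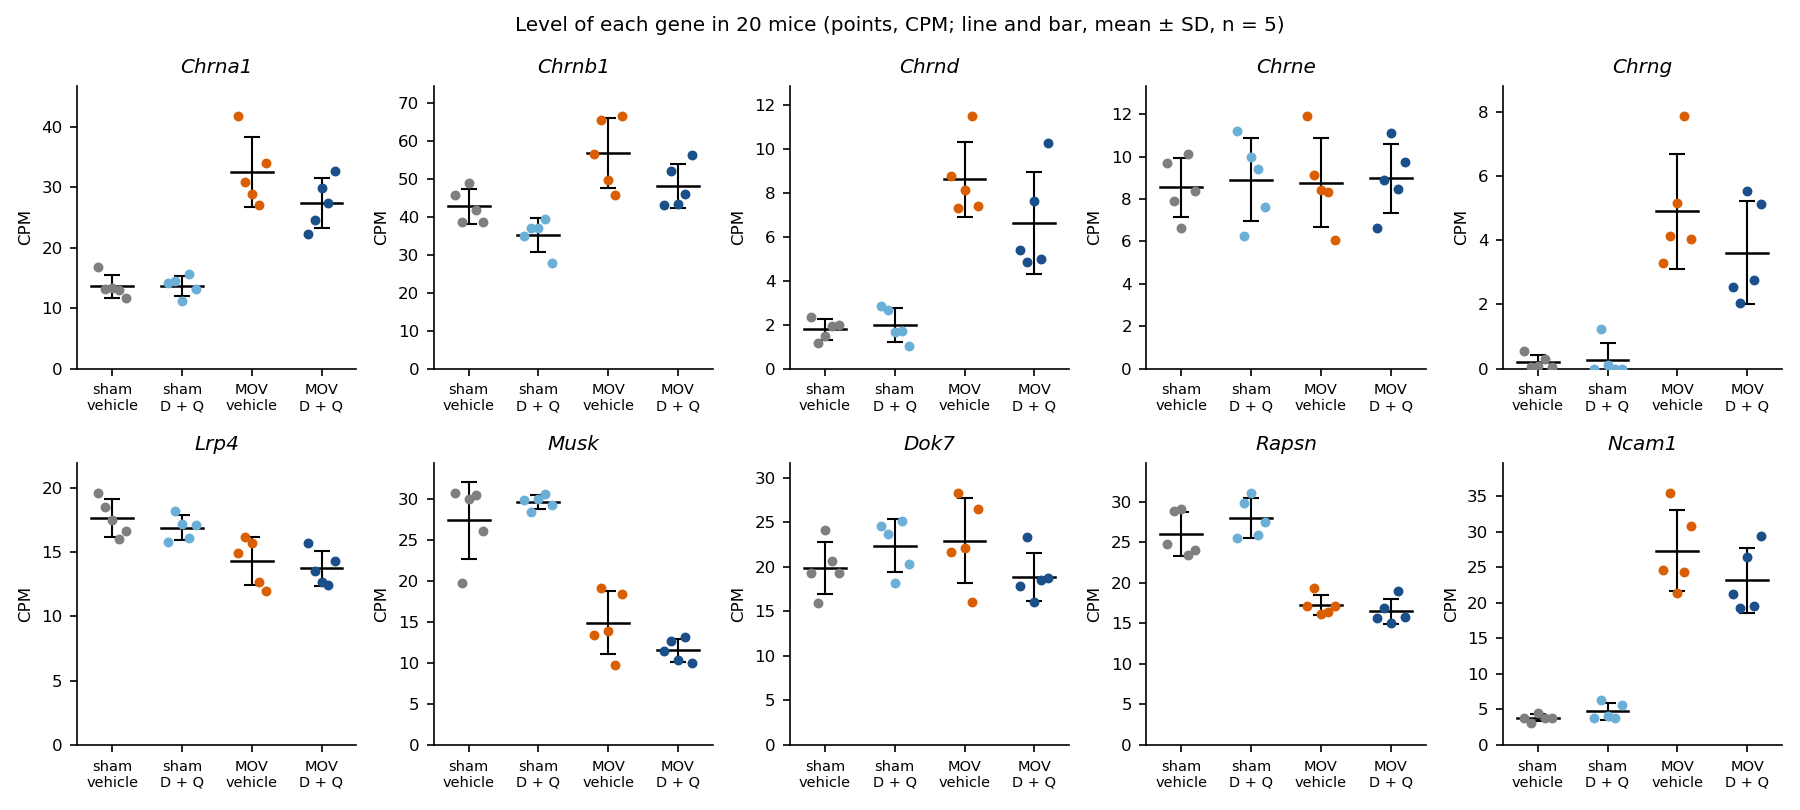
Level of each of the 10 genes in CPM in every mouse (points), with the mean and SD of each group of 5. Chrna1, Chrnd, Chrng and Ncam1 separate MOV from sham upwards in both treatments, Musk and Rapsn downwards, and Chrne and Dok7 overlap throughout.

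Counted over the list, 5 of the 10 genes were called higher and 3 lower after MOV with vehicle. Among all 14601 genes tested in that comparison, 60.5% were called, 30.7% higher and 29.8% lower. The median log2 fold change was 0.32 over the members and -0.015 over all genes tested. With D + Q, in different mice, 5 genes were again called higher and 3 lower, against 65.3% of 14913 genes called (34.4% higher and 30.9% lower), with medians of 0.27 and 0.023. The 8 genes were the same ones, each in the same direction. Groups did not overlap for 6 of the 10 genes with vehicle and for 8 with D + Q, against 46.5% and 53.1% of all genes.

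The scaling matters for the falling genes. Total counts alone moved the median of all genes to 0.36 with vehicle and 0.39 with D + Q, and scaling to the 12 fibre markers moved it to 0.47 and 0.58. The share of calls that were higher then went from 50.8% to 84.1% and 90.9% with vehicle, and from 52.6% to 83.5% and 93.7% with D + Q. The split among the members went from 5 higher and 3 lower to 7 and 2 (total counts) or 7 and 1 (fibre markers) with vehicle, and to 6 and 2 or 8 and 1 with D + Q.

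**Figure D3:**
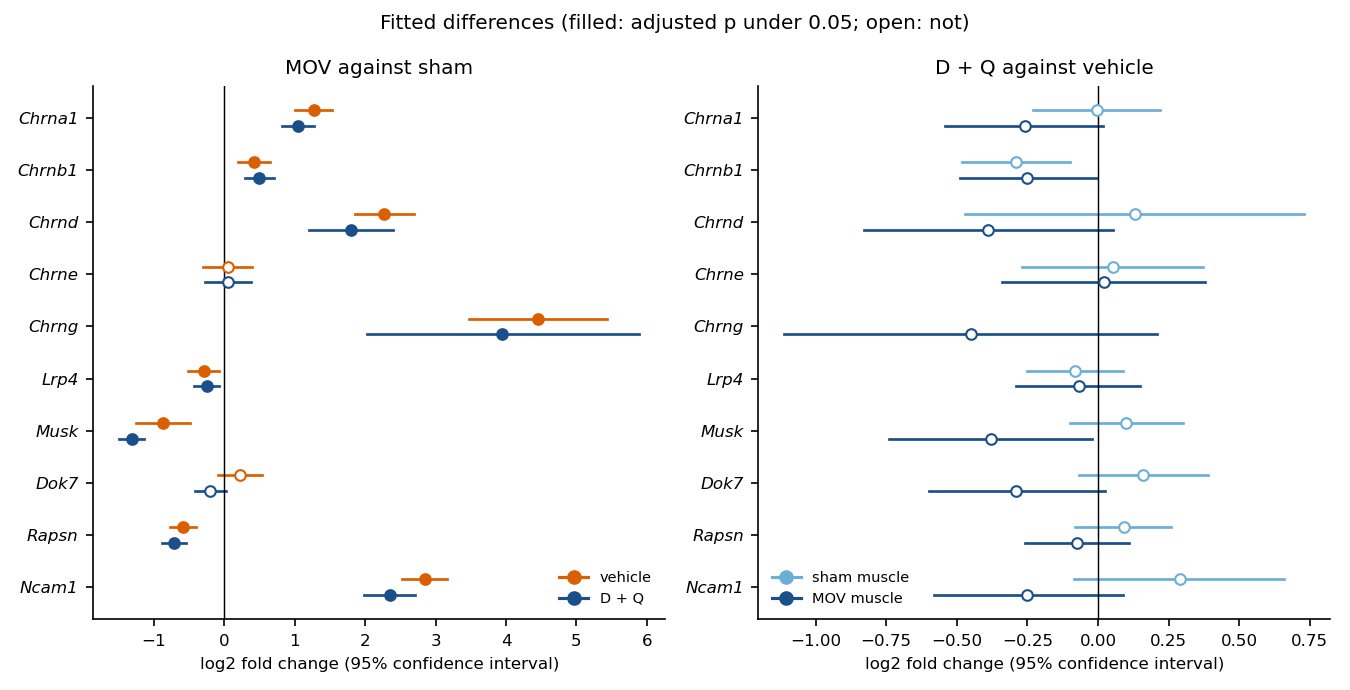
Fitted log2 fold changes with 95% intervals for MOV against sham in each treatment (left) and for D + Q against vehicle in each surgery (right), filled where the adjusted p was under 0.05. On the left, 8 genes are filled in both treatments, and on the right none is filled. Chrng in sham muscle had too few counts to be tested.

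Markers of other cell types moved with MOV beside these genes. The 6 markers of new or regenerating fibres, embryonic myosin Myh3 among them, summed to 29.7 to 58.5 CPM in the sham mice and 379 to 985 CPM in the MOV mice, and all 6 were called higher in each treatment. Schwann cell markers summed to 31.5 to 56.6 CPM in sham and 54.4 to 125 CPM in MOV. Of 10 tested, 5 were higher and 0 lower with vehicle, and 5 higher and 1 lower with D + Q. Fibroblast markers summed to 190.2 to 698 CPM in sham and 4175 to 10360 CPM in MOV, macrophage markers to 45.5 to 129 and 227 to 689 CPM, and endothelial markers to 119 to 183 and 183 to 242 CPM. Of the satellite cell and myoblast markers, 5 of 7 tested were higher with vehicle, and 5 of 8 higher and 1 lower with D + Q. No marker that had a row was at 0 in every mouse of a group. The part of these cell types in the levels of Chrng, Chrnd, Chrna1, Ncam1 or Musk was not tested.

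Whether the senolytic altered the same genes was asked within each surgery, in comparisons that share their mice with those above. In sham muscle, 9 of the 10 genes had enough counts to be tested and 0 were called, against 0.215% of 13926 genes. The lowest adjusted p was that of Chrnb1 (log2 difference -0.29 ± 0.089, 95% interval -0.48 to -0.10, unadjusted p = 0.00497, edgeR adjusted p = 0.247). It was the only member under an unadjusted p of 0.05, where 10.2% of all genes lay, and DESeq2 also called 0 members. The 95% intervals of Chrna1, Chrne, Lrp4, Musk, Dok7 and Rapsn lay within -0.27 and 0.39, and those of Chrnd and Ncam1 reached 0.73 and 0.66. Ncam1 stood at 0.29, and at 0.16 without the D + Q sham mouse that stood apart.

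In MOV muscle 0 of 10 members were called, as was 0% of 15238 genes by edgeR, and DESeq2 called 0 members and 11 genes. For 9 of the 10 the fitted value was below 0, and the members' median was -0.25 on the log2 scale, beside 0.002 for all genes. Scaled to fibre markers the values were closer to 0, from -0.33 to 0.17, with Lrp4 at 0.06 and Rapsn at 0.051 above it, so that 7 were below. The members are not independent of each other, and no p is given for their count. Below an unadjusted p of 0.05 were Musk (-0.38 ± 0.17, 95% interval -0.74 to -0.02, unadjusted p = 0.04, edgeR adjusted p = 0.547) and Chrnb1 (-0.25 ± 0.11, -0.49 to -0.0025, unadjusted p = 0.048, adjusted p = 0.561), where 8.79% of all genes lay. Chrng was lower by 0.45 ± 0.30 (log2 -0.45, interval -1.11 to 0.21, edgeR adjusted p = 0.673) and Chrnd by 0.39 ± 0.20 (-0.39, -0.83 to 0.053, adjusted p = 0.59). Chrne was at 0.022 ± 0.17. The 12 muscle fibre markers were also all below 0 in that comparison (median -0.16), and the 5 fibroblast markers all above 0 (median 0.31), none of them called. The part of either in the members' differences was not tested.

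The interaction asks whether the response to MOV differed between the treatments, and it was called for 0 of the 10 genes, against 0.0127% of 15700 genes. The lowest unadjusted p was that of Musk (interaction -0.48 ± 0.20, 95% interval -0.90 to -0.061, unadjusted p = 0.0268, edgeR adjusted p = 0.809). Dok7 stood at -0.45 ± 0.19 (-0.85 to -0.054, unadjusted p = 0.0277, adjusted p = 0.809) and Ncam1 at -0.54 ± 0.24 (-1.04 to -0.037, unadjusted p = 0.0364, adjusted p = 0.848). These were the 3 members under an unadjusted p of 0.05, a level that 5.71% of all genes reached. Without the D + Q sham mouse that stood apart, the Ncam1 interaction was -0.41. The interval of Chrng, -3.01 to 1.94, left its interaction undetermined at this depth, and that value turned from -0.53 to 2.43 without the D + Q sham mouse that stood apart.

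Among the 10 MOV mice the members did not vary as one. The fourth vehicle MOV mouse had the highest Chrng (7.88 CPM) and Chrnd (11.5 CPM) of its group and the lowest Musk (9.72 CPM), Dok7 (16.1 CPM) and Chrnb1 (45.8 CPM). It also had the lowest summed fibre markers of its group (57838 CPM), the highest summed new-fibre markers (985 CPM) and the highest Schwann cell markers (125 CPM). As a description over the 10 MOV mice, with log2 CPM taken as deviations from the group mean, Pearson's r between Chrng and Chrnd was 0.85, and between Musk and Dok7 it was 0.90. Musk ran against Chrnd at -0.76 and against Chrng at -0.67. Without the fourth vehicle MOV mouse the same values over 9 mice were 0.80, 0.78, -0.72 and -0.49.

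The same mice set the members beside the marker lists. Chrng followed the mean of the new-fibre markers with r = 0.95 and Chrnd with r = 0.86, and both ran against the fibre markers, at -0.82 and -0.73. Musk and Dok7 each followed the fibre markers with r = 0.90, Rapsn with 0.68 and Chrnb1, which was higher after MOV, with 0.66. Schwann cell markers were nearly as close, at 0.79 with Chrng, 0.78 with Chrnd, -0.86 with Musk and -0.85 with Dok7, and fibroblast markers stood at -0.85 with Musk and -0.88 with Dok7. Chrna1 and Ncam1 lay between 0.048 and 0.17 with the new-fibre and the fibre markers. For those 2 genes the values depended on the fourth vehicle MOV mouse. Without it, Chrna1 stood at 0.50 with new-fibre and -0.43 with fibre markers and Ncam1 at 0.35 and -0.028, while Chrng stood at 0.93 with new-fibre markers. With fibre markers, Musk and Dok7 then stood at 0.79 each, Rapsn at 0.76 and Chrnb1 at 0.44. All of these values come from the same libraries and one scaling, which sets genes of the fibre against genes of other cells, and they carry no test.

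**Figure D4:**
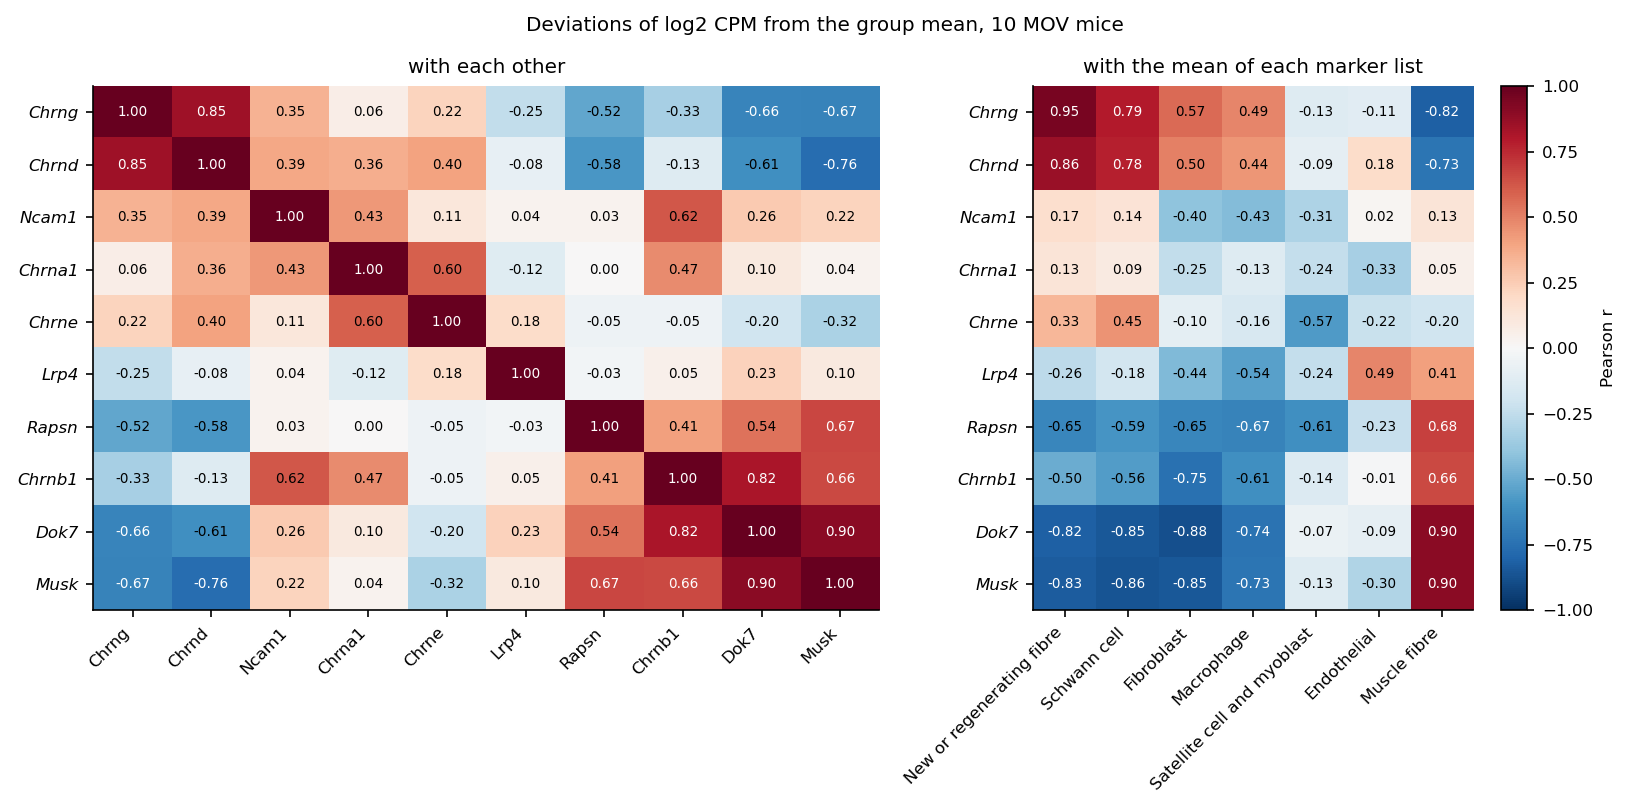
Pearson's r between the deviations of log2 CPM from the group mean over 10 MOV mice, among the 10 genes (left) and between each gene and the mean of each marker list (right). Chrng and Chrnd are high with new-fibre markers (0.95 and 0.86) and Schwann cell markers (0.79 and 0.78), and Musk and Dok7 with muscle fibre markers (0.90 each).

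Over all 20 mice and 15690 other tested genes, the closest likeness to Chrng was that of Aif1l (r = 0.93) and Dclk1 (0.83), with the sham values of Chrng resting on 0 to 20 counts. Nearest to Musk were Kcmf1 and Cux1 (0.93 each), to Dok7 Amot (0.88) and Pacsin3 (0.84), and to Chrnb1 Ywhae (0.89) and Ap2a1 (0.81). Chrnd was nearest to Arpc3 (0.86) and to the myelin gene Mag (0.84), Chrna1 to Steap1 (0.77) and Gm43205 (0.76), Chrne to Gm44415 and Fgfbp3 (0.80 each), Lrp4 to Ccnt2 and Ube2h (0.78 each), Rapsn to 2010320M18Rik (0.83) and Gm15675 (0.80), and Ncam1 to Rpph1 (0.83) and Hras (0.79). Mag was at a low level, with group means of 0.279 to 0.444 CPM. All of these likenesses are the highest of many values and are given as descriptions.

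Other genes of the synapse, a list of 28 partners of which 25 were tested in each treatment, split in both directions. With vehicle 12 were called higher and 8 lower, and with D + Q 12 higher and 9 lower, beside 60.5% and 65.3% of all genes called, about equally in each direction. The medians were 0.24 and 0.16. With vehicle, Nes, which encodes the intermediate filament nestin that gathers at the junction, rose by 2.27 ± 0.23 on the log2 scale, Lama4, a laminin chain of the synaptic basal lamina, by 1.85 ± 0.17, Sntb2, a syntrophin, by 1.63 ± 0.18, and Erbb2, a neuregulin receptor, by 1.21 ± 0.17, each with an edgeR adjusted p of 2.2e-05 or less. Lower were Scn4a, the adult muscle sodium channel (-1.11 ± 0.09), Pdzrn3, a ubiquitin ligase that acts on MuSK (-0.73 ± 0.074), Dnaja3 (-0.72 ± 0.085) and Apc (-0.67 ± 0.059), each with an edgeR adjusted p of 3.94e-06 or less. Agrn, which encodes agrin and is named here for its role after its values were seen, was higher by 0.25 ± 0.088 with vehicle (edgeR adjusted p = 0.0245) and by 0.53 ± 0.096 with D + Q (adjusted p = 9.81e-05). RNA of the whole plantaris does not tell which cells made this transcript, so its rise is not a measure of agrin from the nerve.

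The D + Q mice gave similar values for these partners in their own fit. Sntb2 stood at 1.78 ± 0.092, Lama4 at 1.70 ± 0.095, Nes at 1.61 ± 0.14 and the synaptic collagen gene Col13a1 at 1.16 ± 0.25, while Scn4a stood at -1.06 ± 0.075, Pdzrn3 at -0.79 ± 0.064 and Dnaja3 at -0.68 ± 0.057. All 7 passed the threshold. Scaled to fibre markers, 17 of the list were higher and 1 lower with vehicle and 18 and 2 with D + Q, Scn4a staying lower in both. In sham muscle Lama4 was the only partner called between D + Q and vehicle (0.53 ± 0.10, edgeR adjusted p = 0.0417).

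Genes known to respond to denervation also moved in both directions. Of 19 tested with vehicle, 11 were called higher and 5 lower, and with D + Q 9 were higher and 5 lower, beside 60.5% and 65.3% of all genes called. The medians were 0.67 and 0.36. Myh3, embryonic myosin, rose by 5.03 ± 0.42 with vehicle and 4.77 ± 0.23 with D + Q, Sln, which encodes the calcium pump inhibitor sarcolipin, by 4.48 ± 0.38 and 4.05 ± 0.22, Runx1, a transcription factor, by 3.53 ± 0.23 and 3.43 ± 0.20, and Myog, which encodes the myogenic factor myogenin, by 3.53 ± 0.16 and 3.12 ± 0.26. Myog, Myh3 and Myh8 are also on the list of new-fibre markers.

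Other genes of the same list were lower. Dach2, a repressor of Myog, was lower by 1.76 ± 0.24 with vehicle (-1.76) and 1.35 ± 0.22 with D + Q (-1.35). Fbxo32, the atrophy ubiquitin ligase atrogin-1, stood at -1.14 ± 0.18 and -1.14 ± 0.16, and Hdac4, a histone deacetylase that acts above Dach2 and Myog in denervated muscle, at -0.72 ± 0.08 and -0.49 ± 0.07. Fbxo21, an F-box protein gene, stood at -0.41 ± 0.09 and -0.48 ± 0.11, and Trim63, the ligase MuRF1, at -0.36 ± 0.074 and -0.55 ± 0.091. All of these passed the threshold under the main scaling. Dach2 and Fbxo32 stayed lower under each scaling tried, whereas, scaled to fibre markers, Fbxo21 turned to 0.07 and 0.084, Trim63 to 0.13 and 0.0055, and Hdac4 to 0.066 with D + Q. Trim63 also turned to 0.021 with vehicle when scaled to total counts. Fbxo32, Trim63 and Fbxo21, all called lower here, are linked to muscle atrophy. Gadd45a, Ampd3, Tnfrsf12a and Fbxo30, also linked to it and named after their values were seen, were not called lower. Gadd45a stood at 0.67 ± 0.16 with vehicle (edgeR adjusted p = 0.00314) and -0.061 ± 0.28 with D + Q (0.864), Ampd3 at 0.57 ± 0.11 (0.000361) and 0.36 ± 0.15 (0.0595), Tnfrsf12a at 1.61 ± 0.26 (0.000376) and 1.40 ± 0.31 (0.00346), and Fbxo30 was called in neither.

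**Figure D5:**
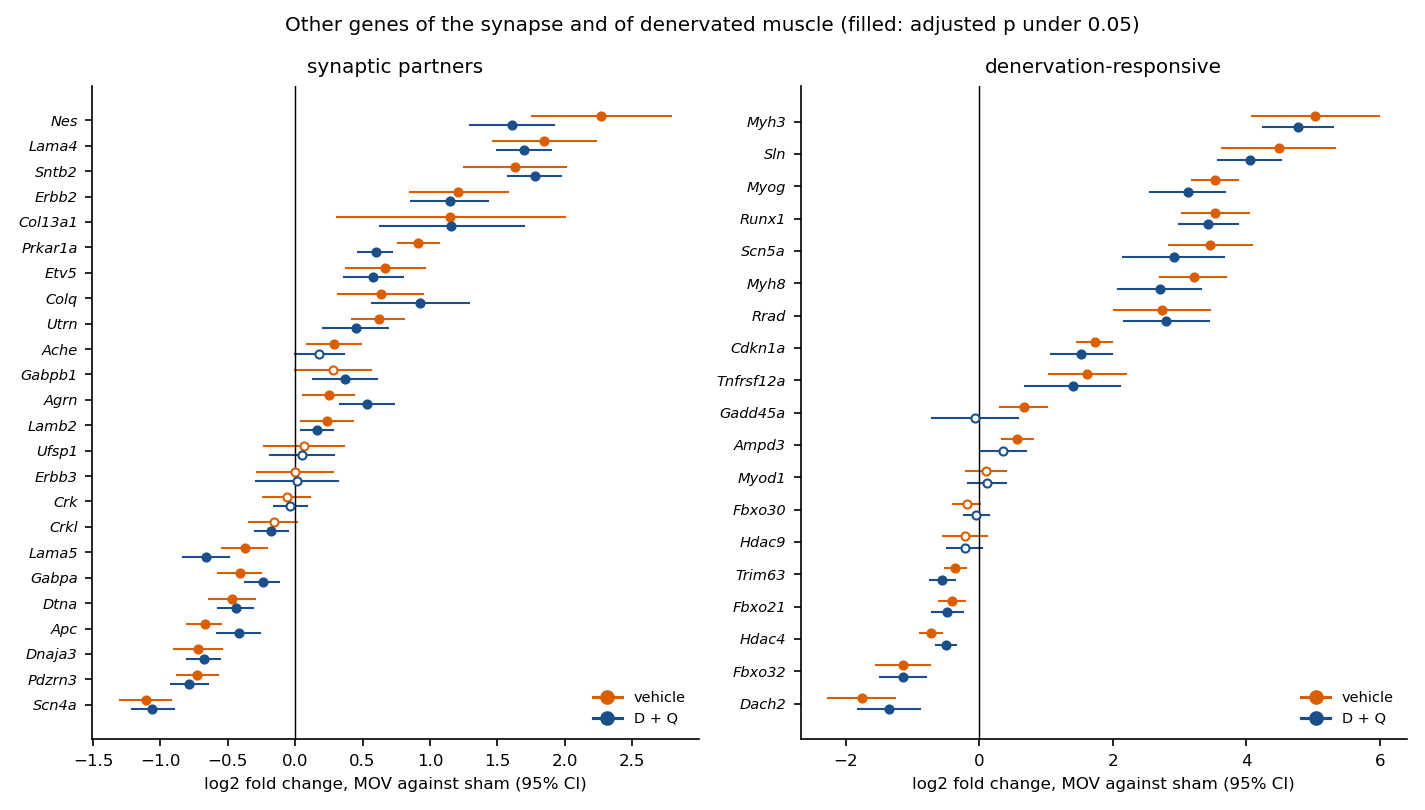
Fitted log2 fold changes for MOV against sham with 95% intervals, for tested synaptic partners (left, those reported here) and denervation-responsive genes (right), by treatment, filled where the adjusted p was under 0.05. Nes and Myh3 lead the 2 panels with vehicle at 2.27 and 5.03, and Scn4a and Dach2 close them at -1.11 and -1.76.

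Receptor subunits of neuronal type were mostly at low levels. Of 9 such genes 7 had a row, and together they summed to 2.75 to 6.64 CPM per mouse. Most of this was Chrna10, at 4.03 ± 0.487 CPM in vehicle sham and 3.38 ± 0.639 CPM in D + Q sham (SD, n = 5). Chrna10 was lower after MOV in both treatments, at -0.57 ± 0.23 with vehicle (edgeR adjusted p = 0.0452) and -0.82 ± 0.20 with D + Q (adjusted p = 0.00145), and Chrna2 was lower with vehicle at -1.83 ± 0.65 (adjusted p = 0.0249) and was not tested with D + Q. Chrnb2 stood at 1.21 ± 0.54 with vehicle (edgeR adjusted p = 0.0624) and 1.01 ± 0.54 with D + Q (adjusted p = 0.112). These calls rest on the scaling, since with total counts or fibre markers 0 of the tested subunits were lower and 1 was higher in each treatment. RLE factors left 1 of the 2 lower calls with vehicle, and DESeq2 called 1 subunit higher there.

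Per kilobase of merged exons, the order of the members in vehicle sham muscle ran from Chrnb1 (16.4 ± 1.75 CPM per kilobase, SD, n = 5) and Rapsn (12.3 ± 1.28) through Chrne (4.81 ± 0.787), Musk (3.26 ± 0.552), Chrna1 (2.99 ± 0.406), Dok7 (2.85 ± 0.423) and Lrp4 (1.64 ± 0.135) to Chrnd (0.494 ± 0.13), Ncam1 (0.436 ± 0.0566) and Chrng (0.0488 ± 0.052). The mice of Musk and Chrna1, of Chrna1 and Dok7, and of Chrnd and Ncam1 overlapped, so those neighbours were not told apart. In vehicle MOV muscle Chrnb1 (21.8 ± 3.54) still led, Rapsn (8.12 ± 0.587) and Chrna1 (7.15 ± 1.28) came next with overlapping mice, and Ncam1 (3.11 ± 0.646) and Chrnd (2.39 ± 0.471) had passed Musk (1.77 ± 0.462), again with overlap between neighbours. Chrng (1.17 ± 0.426) was lowest in all 4 groups, and in MOV muscle its mice overlapped those of Lrp4. The order depends on the length used. With canonical transcript lengths Dok7 came next after Chrnb1 and Rapsn in all 4 groups, at 6.41 CPM per kilobase in vehicle sham, above Chrne (5.02) and Musk (3.97), and at 7.40 in vehicle MOV, above Chrna1 (7.15). Ncam1 (0.62) then also stood above Chrnd (0.598) in vehicle sham, and Rapsn (16.4) above Chrnb1 (16.3) in D + Q sham.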

How the data were processed

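Bulk RNA of the whole plantaris of 20 mice, 5 in each of 4 groups, was measured by RNA sequencing. The authors aligned the reads to GRCm39 with STAR 2.7.8a and quantified genes with the expectation-maximisation method of Partek Flow 10.0 against transcriptome release 103. The deposited values are estimated counts per gene, with no normalization, of which 29.8% were not whole numbers. The lowest row total was 10, which is the minimum the authors kept. Library strandedness was not given in the sources used here. Counts were rounded to whole numbers. All 20 mice had a column, 0 columns were unused, and 20 rows that repeat a gene name were kept as rows of their own.

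Each pairwise comparison was fitted on its 10 mice, and the interaction on all 20, with edgeR 4.0.16 (R 4.3.3): a gene entered when 5 or more of the mice had 10 or more counts, with scaling by the trimmed mean of M-values, and the quasi-likelihood test with Benjamini-Hochberg adjustment over all genes tested at 0.05. CPM use such factors computed over all 20 mice, and the fits use those of their own mice. Per-length levels used merged exons of GENCODE M39 (Ensembl release 116, GRCm39), matched by name for 96.6% of rows, and positions came from the same annotation. Promoters came from RefSeq on GRCm38.p6. Likeness and correlations are Pearson's r of log2 CPM (prior count 2) as deviations from the group mean. Counts of 3 or fewer were treated as the floor. The 10 members were all described, and of the other lists at most 4 called genes in each direction per comparison were named, those with the largest fitted differences, except that 1 gene of the synaptic list is counted but not reported here by name or value. The members, lists and tests were chosen with earlier results of these data known. Alternatives were DESeq2 1.42.0, its size factors within edgeR (RLE), total counts only, scaling to fibre markers, no filter, at least 50 counts, limma 3.58.1 (voom with quality weights), a replicate block, 1 fit of all 20 mice, and each mouse left out. The scripts were tested on counts simulated for MOV against sham with vehicle, with few genes changed and as many higher as lower. That setting tests neither the choice of scaling nor the other comparisons. Replicates are separate mice, so p-values cover the spread between mice. Depth was 17887532 to 26234518 counts per mouse, and counting intervals cover counting error only.

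The numbers in the labels were not used to pair mice.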

Additional observations from a re-analysis of the deposited data

Results flagged for a closer look

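The level of Chrng in the second D + Q sham mouse, 1.22 CPM, lay far above the other 4 mice of its group, at 0 to 0.0976 CPM, by Dixon's criterion. It was the only value of 40 groups of 5 mice to pass, over the 10 genes and 4 groups, where chance passes about 1 in 20 groups. The same mouse measured 3.35 CPM of Myog (others 1.46 to 2.34 CPM), 25.8 CPM of Actc1 (3.47 to 9.38 CPM) and 414 CPM of Col3a1 (107 to 195 CPM), while its Myh3, at 9.81 CPM, lay within the range of the others (8.3 to 10.5 CPM). The difference in the response to MOV between treatments was called for 0 of the 10 genes.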

How the results depend on the processing

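With vehicle, leaving out 1 mouse at a time gave 7 to 8 members and 7929 to 8504 genes called after MOV, and with D + Q 7 to 9 members and 8850 to 9450 genes. Chrna1, Chrnb1, Chrnd, Chrng, Musk and Ncam1 kept their direction and call under every alternative run for MOV against sham in both treatments, and Rapsn did so except under fibre marker scaling (-0.11 and -0.16). Lrp4 reversed under total counts (0.086 with vehicle, 0.12 with D + Q) and fibre marker scaling (0.18 and 0.31), as did Dok7 with D + Q (0.17 and 0.36). Chrne, called in neither main comparison, was called higher under total counts (0.43 with vehicle, 0.42 with D + Q) and fibre marker scaling (0.54 and 0.63). It ranged from -0.069 to 0.18 with vehicle and from -0.049 to 0.15 with D + Q when a mouse was left out.

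For D + Q against vehicle in sham muscle, 0 members were called under any alternative. The 30 genes called became 133 with DESeq2, 49 with total counts, 67 without a filter, 19 in 1 fit of all mice and 3 without the first vehicle and the second D + Q sham mouse, an alternative added after seeing the data, and 2 to 74 with 1 mouse left out. Values near 0 changed sign: Chrna1 to 0.035 (total counts), 0.042 (fibre markers), 0.0013 (no filter), 0.0047 (at least 50 counts), 0.0075 (all mice) and 0.069 (without both mice), or -0.054 to 0.085 with 1 mouse left out, Chrnd to -0.065 (limma) or -0.049 to 0.29, and Chrne -0.049 to 0.15. In MOV muscle DESeq2 called 11 genes, and 0 to 2 were called with 1 mouse left out. Lrp4 turned to 0.06 and Rapsn to 0.051 (fibre markers), and Chrne to -0.065 (limma) or -0.081 to 0.16. For the interaction, the 2 genes called became 1 with fibre markers, 1 without both mice, and 2 to 3 with 1 mouse left out. Chrng turned to 0.68 (limma), 1.57 (without both mice) or -1.39 to 2.43, Lrp4 to -0.011, -0.0058 or -0.049 to 0.043, Chrne to 0.092 (fibre markers) or -0.14 to 0.11, and Chrnb1 ranged from -0.034 to 0.10. Apart from the scalings and left-out mice, the causes were not tested. Canonical transcript lengths were also added after seeing the data.

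Mice with the same number in their titles did not deviate together, with correlations of -0.15 to 0.19, so those numbers give no pairing. The sample descriptions carry other numbers, and sham and MOV mice matched by those were not compared. The replicate block also used the title numbers. With the replicate block no member call changed, 19 genes were called in sham muscle, 2 in MOV muscle and 1 for the interaction, and Chrna1 in sham muscle stood at 0.00085 and the Chrne interaction at 0.0021.

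Low counts limited Chrng in sham muscle, where 7 of 10 mice had 3 counts or fewer.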
